A study of Mus musculus with 8 samples.

Results

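The respiratory chain and ATP synthase of mouse embryonic stem (ES) cells are built from subunits encoded in the nucleus and a few encoded in mitochondrial DNA. Names of nuclear-encoded subunits were taken from a table of 23337 gene names by their symbols. Their mean normalized count over the 8 libraries had to be at least 100. Names in alphabetical runs, where a name extends another by a digit and rows can be out of register, were left out. Of 91 names with a matching symbol, 75 were kept, 9 were left out because they lie in such runs and 5 for a mean under 100. Ndufb10 and Ndufb11 were left out with the 9 although their rows are in register. The 75 names comprised 28 subunits of complex I, 4 of complex II, 9 of complex III, 12 of complex IV, 13 of ATP synthase (complex V), somatic cytochrome c, and 8 related proteins that the same symbols bring in, so that 67 are subunits or cytochrome c. Of 13 mitochondrially encoded subunits looked up, 0 were found among the gene names, so they were not analysed here.

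RNA was sequenced from 4 ES cell clones, numbered 6, 20, 30 and 36, at passage 6 and again at passage 16, giving 8 libraries and n = 4 clones per passage. All 8 come from wild-type cells that carry GFP in the Rosa26 locus, derived from blastocysts and grown in DMEM with LIF, and the labels give the strain as 129S1. Each clone is an independently derived line, so a difference between passages is one between 2 time points of the same 4 lines. The p-values of the passage test, fitted without a clone term, measure that difference against the spread between lines. Those of the clone test measure differences between clones against the passage-to-passage spread within clones. The comparison asks what expansion in culture does to ES cells. The methods name C57BL6 and 129S1 lines without saying which were sequenced.

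In the respiratory chain, complex I oxidises NADH and complex II oxidises succinate, and both pass electrons through ubiquinone to complex III, cytochrome c and complex IV, where oxygen is reduced. Complexes I, III and IV pump protons across the inner mitochondrial membrane, and ATP synthase lets them return through its Fo part while its F1 part makes ATP. Mouse ES cells in culture with LIF keep a working respiratory chain and also ferment glucose to lactate. Several complex IV subunits have isoforms known from heart, muscle, lung or testis.

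The libraries held between 21394069 and 34295561 recovered reads. Of 18 ES cell markers, 16 were in register and tested, and their summed normalized counts lay between 148843 and 154945 at passage 6 and between 145622 and 156649 at passage 16. Markers of fibroblasts, of trophoblast and of mesoderm and ectoderm summed to at most 13312, 4451 and 5374 in any library. The 10 primitive endoderm markers summed to between 25994 and 96632, and none was at 0. Most of that sum came from Col4a1, Sparc, Lamb1 and Col4a2, with 30083, 24548, 18754 and 15544 in its highest library, clone 36 at passage 6. There Dab2, Gata4, Pdgfra, Gata6, Sox7 and Foxa2 had 2972, 1586, 1334, 1143, 514 and 155. In bulk RNA, fewer cells of a type and less RNA per cell cannot be told apart.

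Subunits of the same complex differed widely in level. The scale here is the mean normalized count over the 8 libraries per kilobase of transcript, with the median length of a gene's principal annotated transcripts. For 57 of the 75 names these have 1 length, and for the others the level depends on the choice. The median over complex I was 2057, over complex II 2258 and over complex III 4182, against 6128 for complex IV and 6031 for ATP synthase. Atp5b and Atp5a1, the beta and alpha subunits that form the catalytic F1 head, stood at 29227 and 13581 per kilobase and led the ATP synthase names. In complex IV, Cox4i1 and Cox5a led with 10947 and 10115. In complex III, the hinge protein Uqcrh and the small subunit Uqcrb led with 5931 and 5002. The accessory subunits Ndufa7 and Ndufb8 led complex I with 5410 and 3898. Ndufb2 stood at 396 with the median length, and at 2099 or 218 with its shortest or longest principal transcript. Sdhd, a membrane anchor of complex II, and Sdha, its flavoprotein, stood at 2880 and 2518, and cytochrome c (Cycs) at 1613. A related protein, the supercomplex factor Cox7a2l, had 4224 per kilobase. The 67 subunit names together took between 1.01% and 1.11% of all normalized counts of a library, with ATP synthase alone at 0.488% to 0.538%.

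The order of neighbours in this scale is uncertain where reads cannot be placed. Of the 75 names, 36 share no stretch of 50 bases, the read length, with another annotated transcript, and 20 share over 10% of such stretches. Atp5l shares 84.8%, Atp5o 45.6% and Uqcrb 43.4%. Exons of 21 names are overlapped by another gene on either strand, and whether the counting used the strand is not given in the sources used here.

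The level of most subunits was nearly the same in all 8 libraries. The median over the 75 names of the standard deviation of log2(normalized count + 1) across libraries was 0.079, and the median ratio of the highest to the lowest library was 1.18. Of the 62 members with means of 1000 or more, 53 had a standard deviation under 0.1, against 41.7% of all 4878 such names in register, whose median standard deviation was 0.11. Uqcrh varied least. At passage 6 clones 6, 20, 30 and 36 had 3154, 3295, 3192 and 3273 normalized counts and at passage 16 the same clones had 3200, 3306, 3251 and 3282, a standard deviation of 0.025 beside 0.025 from counting reads alone. Ndufab1, the mitochondrial acyl carrier protein that also sits in complex I, lay between 1892 and 2023, and Sdhd between 3419 and 3647. Only 4 members had a standard deviation over 0.2, namely Ndufa4l2, Cox7a1, Ndufv3 and Cox6b2.

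**Figure D1:**
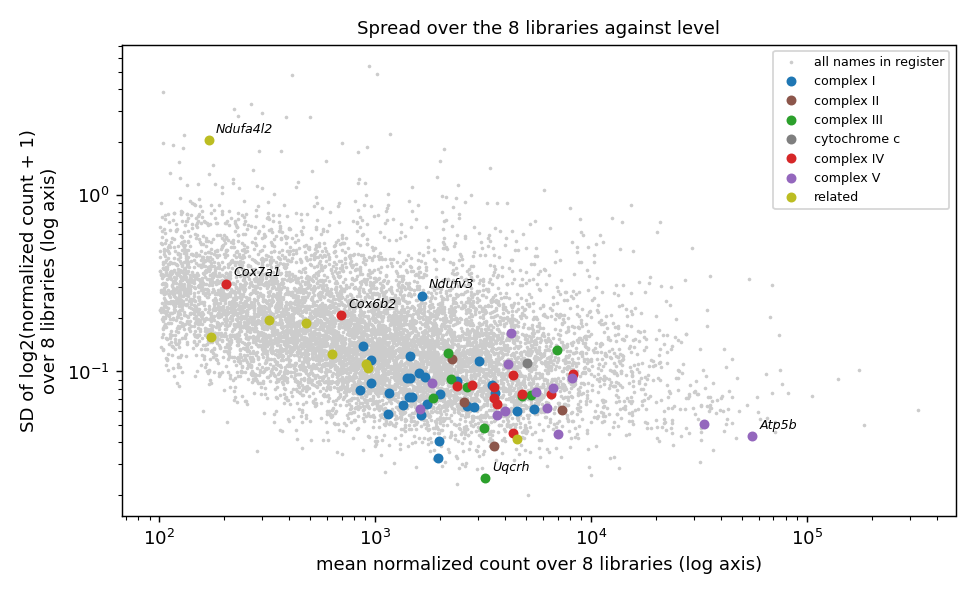
Standard deviation of log2(normalized count + 1) over the 8 libraries (log axis) against the mean normalized count (log axis), for 9444 names in register with a mean of at least 100 (grey) and for the 75 names coloured by complex. Most coloured points lie low in the grey cloud, with Uqcrh lowest at 0.025, while Ndufa4l2, Cox7a1, Ndufv3 and Cox6b2 stand above 0.2.

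Passage 16 was then compared with passage 6 in each name. No member passed the test at an adjusted p of 0.05 (0 of 75, with a lowest adjusted p of 0.947 from limma, adjusted by Benjamini-Hochberg over 14791 names), where 1 of all names did (0.00676%). At an unadjusted p under 0.05 there were 2 members, Ndufb4 and Ndufa8, against 3.5% of all names. Fitted on the 12283 names in register alone, limma called 0 names by passage, with 1 member at an unadjusted p under 0.05. On the recovered reads, edgeR and DESeq2 gave 1 and 4 members at that level and none after adjustment. Over all names, edgeR called 1 of 14718 and DESeq2 46 of 15788 by passage after adjustment. The 95% interval of the log2 change lay within 0.5 on either side of 0 for 71 of 75 members. Of 4878 names in register with a mean of at least 1000, 89.3% lay within it. Within 0.2 lay 44 members, against 33.0% of those names. The 4 members outside 0.5 were Cox7a1, Ndufa4l2, Ndufaf3 and Ndufv3.

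Ndufb4 (chr16:37647602-37654368 in GRCm38.p6), an accessory subunit of the membrane arm of complex I, had the largest difference in that complex. In the order of clones 6, 20, 30 and 36, which holds for all lists of 4 values here, it had 1400, 1264, 1310 and 1485 normalized counts at passage 6 and 1589, 1464, 1595 and 1515 at passage 16. Both groups overlap by 1 library, that of clone 36 at passage 6 lying above that of clone 20 at passage 16, and the level was higher at passage 16 in 4 of 4 clones. The means were 1365 ± 98.3 and 1541 ± 62.7 (SD, n = 4), a log2 change of 0.18 with a 95% interval from 0.025 to 0.33 (adjusted p = 0.947, limma). Of its stretches of 50 bases, 37.0% also occur in other transcripts. Ndufa8 (chr2:36036324-36049338), another accessory subunit, had 1277, 1342, 1316 and 1274 at passage 6 and 1433, 1370, 1409 and 1400 at passage 16. All of passage 16 lay above all of passage 6, with a log2 change of 0.11 (adjusted p = 0.947, limma).

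Such a separation, with every library of passage 16 above every one of passage 6, was seen for 3 members, Ndufa8, Ndufb2 and Ndufb7, against 1.18% of all names tested, and none lay below throughout (1.25% of all names). In Ndufb7 it rested on a gap of less than 1 normalized count between 1412 in clone 6 at passage 6 and 1413 in clone 30 at passage 16, and the library of clone 36 at passage 16 stood apart at 1682. Ndufb2, an accessory subunit, had 819, 930, 930 and 938 at passage 6 and 1095, 955, 992 and 980 at passage 16, a log2 change of 0.15 that came to 0.11 without either library of clone 6 and to 0.065 without both. Clone by clone, 10 members were higher at passage 16 in 4 of 4 clones, where 7.81% of all names were. Cox6a1, Cox6b1 and Ndufaf3 were higher in 0 of 4 clones, where 9.58% were.

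The other complexes gave no call either. In complex II, Sdhb, the iron-sulphur subunit, had means of 2196 ± 180 and 2367 ± 156 (SD, n = 4), and Sdha 7226 ± 254 and 7381 ± 387. In complex III the core subunits Uqcrc2 and Uqcrc1 had log2 changes of -0.050 and 0.046, and Uqcr10, a small subunit with the next widest range after Uqcrc1, lay between 1905 and 2482. Cytochrome c had 4832, 5046, 4957 and 4606 at passage 6 and 5849, 4704, 4933 and 5383 at passage 16, so that the groups overlap. In ATP synthase the largest changes were 0.064 for Atp5f1, the b subunit of the stalk, and 0.062 for Atp5g3, a gene for the c ring. Atp5b had 55831 ± 506 at passage 6 and 56168 ± 2521 at passage 16 (SD, n = 4), with an interval from -0.085 to 0.10 for its log2 change. In complex IV the 2 largest changes were those of the isoforms Cox7a1 and Cox6b2, and Cox5a followed with 0.10 and Cox6b1 with -0.094. Ndufaf3, a complex I assembly factor, had 298, 373, 354 and 364 at passage 6 and 245, 311, 322 and 307 at passage 16, lower in 4 of 4 clones, with a log2 change of -0.23 (adjusted p = 0.947, limma).

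Single libraries carried much of these uncalled changes. Cox7a1 went from 0.32 to 0.17 without clone 20 at passage 6 and to 0.097 without clone 20 altogether, and to 0.49 without clone 6. Cox6b2 went from 0.14 to 0.037 without clone 30 at passage 6 and to 0.26 without clone 6 at passage 6. In ATP synthase, Atp5f1 went to 0.029 without clone 36 at passage 16, 0.036 without clone 6 at passage 6 and 0.097 without clone 6 at passage 16. Atp5g3 went to 0.017 without clone 30 at passage 16, 0.038 without clone 20 at passage 6 and 0.099 without clone 20 at passage 16. Sdhb came to 0.050 without clone 20 at passage 6, Uqcrc2 to -0.0043 and Ndufaf3 to -0.14 without clone 6 at passage 16, and Cycs to 0.041 without that library. Ndufb4 stayed between 0.14 and 0.23 over the fits without 1 library or 1 clone.

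**Figure D2:**
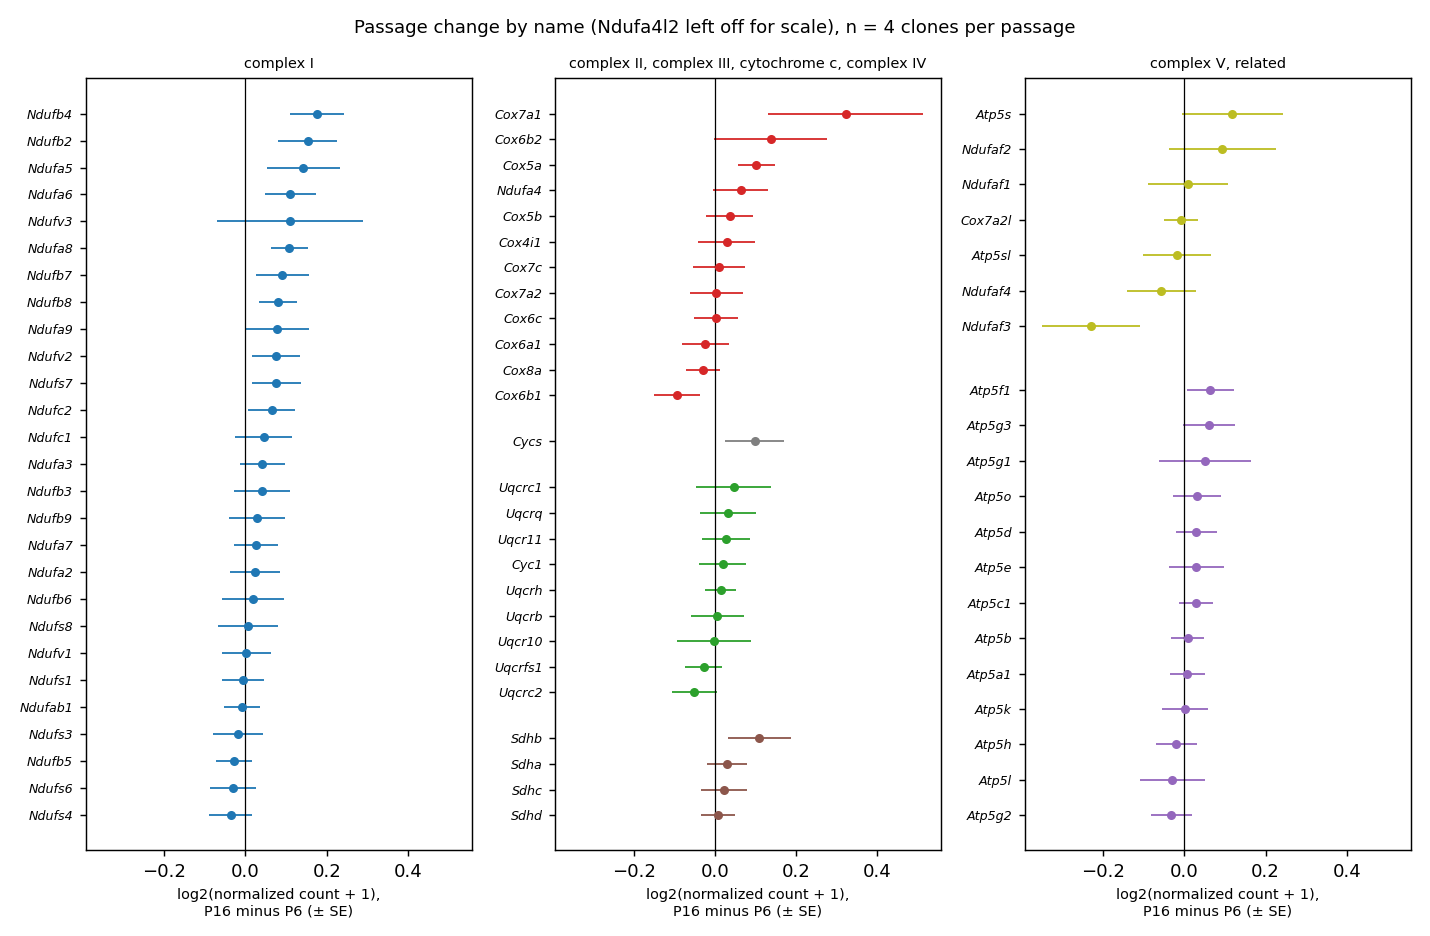
Log2 change from passage 6 to passage 16 (limma on log2(normalized count + 1), points, with the standard error as bars, n = 4 clones per passage) for the members in 3 panels by complex. Ndufa4l2, at 1.08 with a standard error of 1.31, is left off for scale, and 1 complex I name is not shown. Most points lie within 0.1 of 0, and Cox7a1 at 0.32 and Ndufaf3 at -0.23 lie farthest out.

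Small differences mostly had the same sign. The fitted level was higher at passage 16 for 56 of 75 names, 74.7%, against 49.6% of all names in register, and the median log2 change was 0.028 against -0.0037 over all 14791 names tested. By complex, 22 of 28 names of complex I, 4 of 4 of complex II, 6 of 9 of complex III, 9 of 12 of complex IV and 10 of 13 of ATP synthase were higher. The sign was not shared by the clones: the median difference between the 2 passages of a clone was 0.032 in clone 6, -0.051 in clone 20, 0.079 in clone 30 and 0.027 in clone 36, with 45, 26, 64 and 46 of 75 names higher. Single libraries set the count, which fell to 39 of 75 without clone 30 at passage 16 and to 41 of 75 without clone 6 at passage 6, with medians of 0.0035 and 0.0049.

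These 2 libraries were the extremes for many members. In clone 30 at passage 16, 31 of the 75 names had their highest level, against 12.8% of 9444 names in register with a mean of at least 100. In clone 6 at passage 6, 24 had their lowest level, against 12.4%. Names with short transcripts shared part of this. By the same median length, among 213 other names with a transcript under 1000 bases and a mean of at least 1000, 25.8% were highest in clone 30 at passage 16 and 21.6% lowest in clone 6 at passage 6, against 14.0% and 11.97% of 4553 such names with longer transcripts. Of the 32 members with a transcript of at least 1000 bases, 12 were highest in the first library and 8 lowest in the second, and of the 43 shorter ones 19 and 16. The part of transcript length in the result was not tested.

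The complexes are described next by clone and passage, as the mean over their names of the log2 level relative to each name's own mean. In the same order of clones, complex I stood at -0.038, -0.027, -0.024 and -0.011 at passage 6 and at 0.023, -0.023, 0.064 and 0.035 at passage 16. At passage 16 clones 6, 30 and 36 stood above all passage 6 libraries, and clone 20 among them. Complex III stood at -0.065, 0.035, 0.019 and -0.0032 at passage 6 and at -0.040, -0.052, 0.11 and -0.0041 at passage 16. ATP synthase had nearly the same profile, with -0.079, 0.030, 0.016 and -0.0017 at passage 6 and -0.020, -0.056, 0.084 and 0.027 at passage 16. In both, clone 30 at passage 16 was highest, with 9 of 9 and 13 of 13 names above their own mean, and clone 6 at passage 6 lowest.

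Complexes II and IV had other profiles. Complex II ranged from -0.10 in clone 20 to 0.047 in clone 36, both at passage 6. Complex IV ranged from -0.072 in clone 30 at passage 6 to 0.051 in clone 36 at passage 16. In the lower of these libraries Cox6b2 and Cox7a1 lay farthest from their own means, at -0.37 and -0.21. The mean of the 7 core subunits of complex I had the same lowest and highest libraries as complexes III and V, with -0.079 in clone 6 at passage 6 and 0.090 in clone 30 at passage 16. For complex I the means over libraries were -0.025 ± 0.011 at passage 6 and 0.025 ± 0.036 at passage 16 (SD, n = 4), and for ATP synthase -0.0088 ± 0.049 and 0.0088 ± 0.060.

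**Figure D3:**
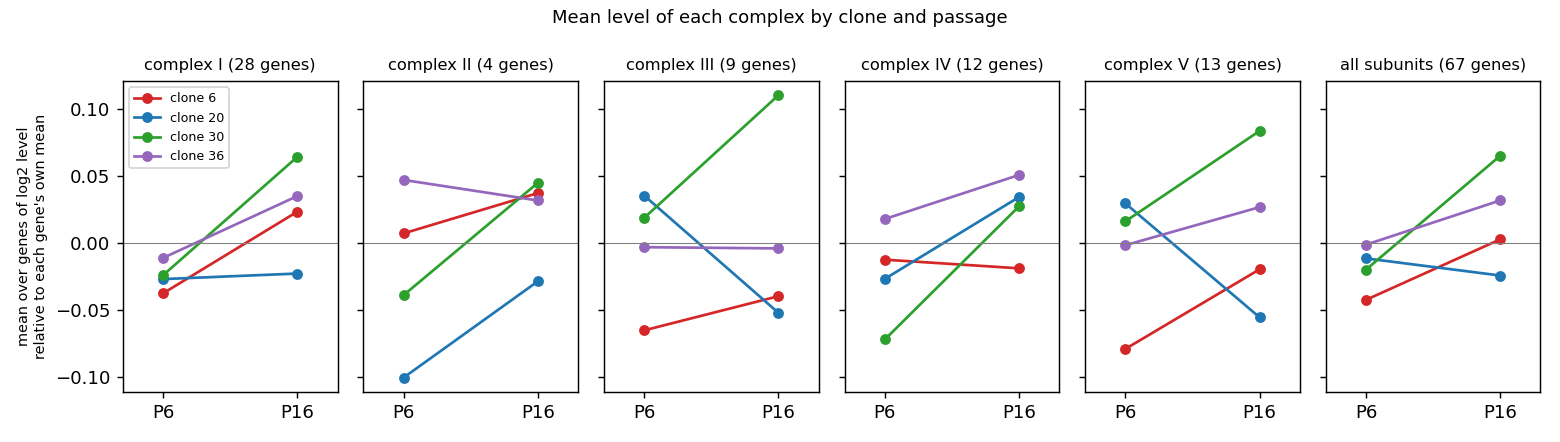
Mean over the names of a complex of the log2 level relative to each name's own mean over 8 libraries, at passage 6 (P6) and passage 16 (P16), with 1 line per clone, for 5 complexes and for the 67 subunits. Clone 30 rises to the highest point of complexes I, III and V at passage 16, clone 20 falls in complexes III and V, and all values lie between -0.10 and 0.11.

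Clones were also compared with each other, in a fit with clone and passage. No member passed this test either (0 of 75, lowest adjusted p = 0.477, limma F-test), where 20 of all names did (0.135%). In that limma fit no member had an unadjusted p under 0.05, against 10.7% of all names, and edgeR gave 0 members at that level. DESeq2 gave 5, Cox6a1, Atp5f1, Cox7a2, Atp5g3 and Uqcrc1, and 0 after adjustment, with a lowest adjusted p of 0.0857. Over all names, DESeq2 called 1121 of 14486 by clone after adjustment. Fitted on the 12283 names in register alone, limma called 62 names by clone and 0 members, with 1 member at an unadjusted p under 0.05. Uqcrc1, a core subunit of complex III, had the lowest p of the limma fit over all names (unadjusted p = 0.0646). Its normalized counts were 7609 and 8182 in clone 30 at passages 6 and 16, above the 6256 to 7220 of the other 6 libraries. Cox7a2, a complex IV subunit, had 2480 and 2479 in clone 20 and 2577 and 2535 in clone 36, against 2246 to 2333 in clones 6 and 30, so that the first pair of clones lay above the other.

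Both libraries of clone 30 were the highest 2 of 8 for 12 members, against 10.1% of names in register with a mean of at least 100. These include Atp5a1, Atp5b and Atp5k of ATP synthase, Cyc1, Uqcr10 and Uqcrc1 of complex III, and Ndufs8, Ndufv2 and Ndufab1 of complex I. Both libraries of clone 6 were the lowest 2 for 10 members, against 3.89%, among them Atp5e, Atp5k, Atp5l and the complex I names Ndufb3, Ndufb9, Ndufs1 and Ndufs7. Atp5k, the e subunit of Fo, belongs to both groups, with 1522 and 1511 in clone 6 and 1679 and 1681 in clone 30.

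A different pattern tied 5 members to 1 library by their position. Cycs, Ndufa4, Ndufa5, Ndufa9 and Ndufb2 are the 5 members on chromosome 6, and each was highest in clone 6 at passage 16. Ndufa4, a complex IV subunit once assigned to complex I, had 4974 there against 4050 to 4523 in the other 7 libraries. Ndufa5 had 1044 against 789 to 968, and Ndufa9, an accessory subunit of complex I, 3554 against 2757 to 3129. Cycs had 5849 against 4606 to 5383, and Ndufb2 1095 against 819 to 992. None of these 5 values overlaps the other libraries.

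Of 435 names of chromosome 6 with a mean of at least 100 in register, 69.9% were highest in this library, against 19.4% of all 9444 names. The log2 difference between the 2 libraries of clone 6 was between 0.28 and 0.42 for the 5 members, with a median of 0.33, beside a median of 0.28 over the 435 names. For the other 70 members the median was 0.021, and the medians of the other chromosomes lay between -0.093 for X and 0.051 for chromosome 12. In clones 20, 30 and 36 the median of chromosome 6 differed by 0.017, -0.020 and 0.047 between the passages. Without clone 6 at passage 16 the passage changes were 0.041 for Cycs, 0.0086 for Ndufa4, 0.082 for Ndufa5 and 0.010 for Ndufa9, and the median over the 5 fell from 0.098 to 0.041. The cause of the shift of the chromosome was not tested.

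**Figure D4:**
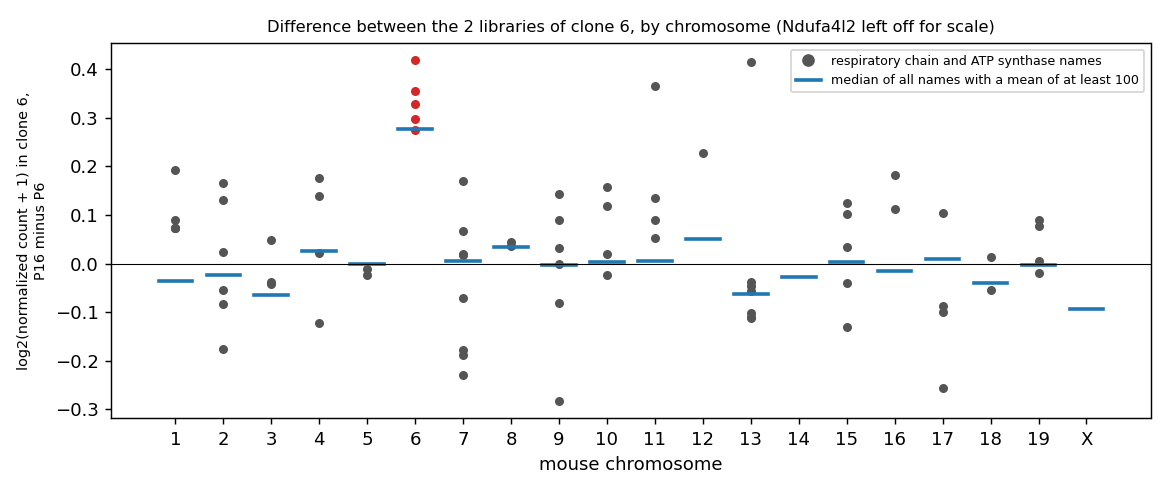
Difference in log2(normalized count + 1) between passage 16 and passage 6 of clone 6, by mouse chromosome, for 74 members (points, chromosome 6 in red, Ndufa4l2 left off for scale) and as the median over all names in register with a mean of at least 100 (blue bars). The 5 members on chromosome 6 lie between 0.28 and 0.42 beside a bar at 0.28, and the bars of the other chromosomes lie between -0.093 and 0.051.

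The 4 most variable members were high and low in much the same libraries. Ndufa4l2 (chr10:127509274-127517154) encodes a paralog of Ndufa4 that is induced by the HIF transcription factors in low oxygen and is not counted as a standard subunit. It had 366, 8.11, 19.7 and 214 normalized counts at passage 6 and 86.8, 368, 34.8 and 255 at passage 16, a range of 45.4-fold that rests on as few as 9 reads. It was lower at passage 16 in clone 6 and higher in clone 20, single libraries without a test, and the means of 152 ± 171 and 186 ± 154 (SD, n = 4) overlap. Ndufv3, an accessory subunit next to the NADH site of complex I, had 2072, 1215, 1330 and 1768 at passage 6 and 1737, 1908, 1410 and 1721 at passage 16, a range of 1.71-fold. Cox7a1, the heart and skeletal muscle isoform of a complex IV subunit, had 231, 130, 173 and 197 and then 204, 260, 194 and 243. Cox6b2, the isoform known from testis, had 846, 637, 533 and 650 and then 721, 804, 708 and 666.

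In Ndufa4l2, Ndufv3 and Cox7a1 the lowest 3 libraries were the same, clone 20 at passage 6 and both of clone 30. In Cox6b2 clones 30 and 20 at passage 6 were lowest too, but clone 30 at passage 16 ranked 4 of 8 from the top. Neither the passage nor the clone test called any of the 4, with adjusted p between 0.947 and 0.955 for passage and between 0.599 and 0.836 for clone (limma). The passage change of Ndufa4l2 was 1.08 with an interval from -1.95 to 4.11 (limma), and it reversed to -0.34 without clone 20. DESeq2 and edgeR gave smaller log2 changes for Ndufa4l2, 0.29 and 0.30, or 0.78 and 0.74 with the clone as a term.

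**Figure D5:**
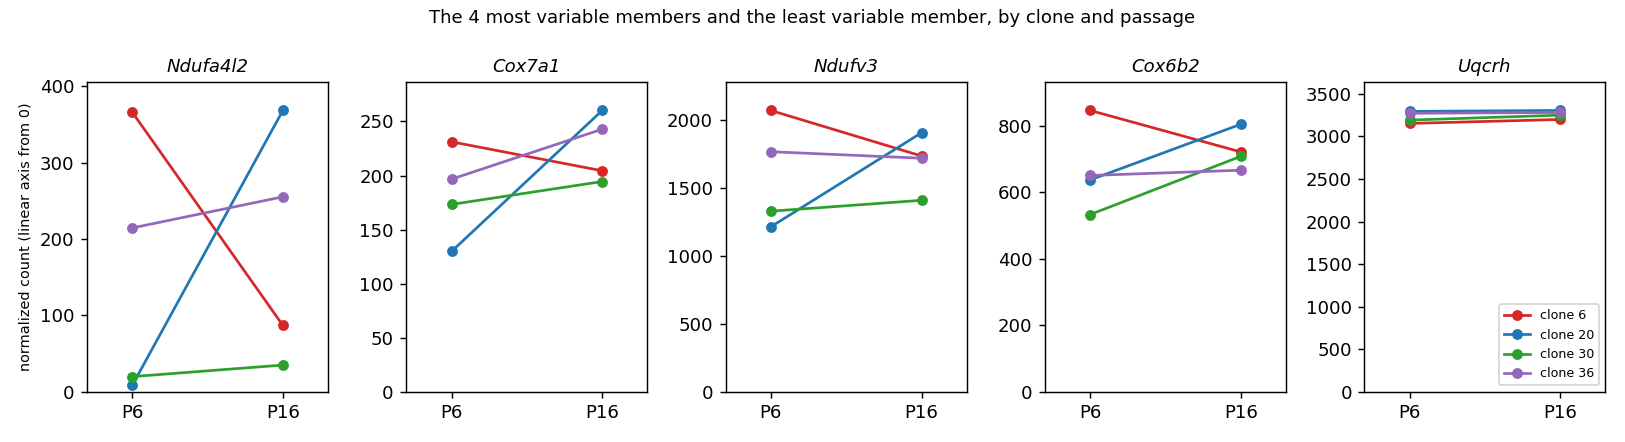
Normalized counts (linear axes from 0) of the 4 most variable members and of Uqcrh, the least variable, at passage 6 (P6) and passage 16 (P16), with 1 line per clone. Clone 20 runs from the bottom of the first 3 panels to the top or near it while clone 6 falls, whereas the lines of Uqcrh lie between 3154 and 3306.

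Levels of the glycolytic list varied over these libraries as well. The mean over 21 tested names of that list, relative to each name's own mean on the log2 scale, was 0.53, -0.50, -0.45 and 0.14 at passage 6 and 0.074, 0.36, -0.34 and 0.18 at passage 16, with summed normalized counts from 240179 to 453191 and from 261107 to 409113. Its lowest 3 libraries were those of Ndufa4l2, Ndufv3 and Cox7a1. The 10 primitive endoderm markers had 0.30, -0.10, -0.72 and 1.08 and then -0.59, 0.73, -1.12 and 0.42, with clone 36 at passage 6 highest and clone 30 at passage 16 lowest. Their part in the levels of these members was not tested. Among 9443 names, those most like Ndufv3 over the 8 libraries, looked up after its values were seen, were Rcan3 (Pearson r = 0.994), Bnip3 (0.993), Lef1 (0.992), Tpi1 (0.992) and Tbl2 (0.990), and for Ndufa4l2 they were Scd1 (0.994), Pgm2 (0.994), Slc16a3 (0.994), Egln3 (0.990) and Tob1 (0.988). Tpi1 is a glycolytic enzyme, and the points share their libraries and scaling.

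The upstream sequences of 3 of these members are shown because they are among the most variable, read from RefSeq on GRCm38.p6, 250 bases up to the gene's start, on the gene's own strand. Capitals mark ACGTG or GCGTG, the core bound by HIF and by several other factors, on either strand. Ndufv3 lies at chr17:31519865-31520114 (plus strand), Cox7a1 at chr7:30183921-30184170 (plus strand) and Cox6b2 at chr7:4753095-4753344 (minus strand).
Ndufv3: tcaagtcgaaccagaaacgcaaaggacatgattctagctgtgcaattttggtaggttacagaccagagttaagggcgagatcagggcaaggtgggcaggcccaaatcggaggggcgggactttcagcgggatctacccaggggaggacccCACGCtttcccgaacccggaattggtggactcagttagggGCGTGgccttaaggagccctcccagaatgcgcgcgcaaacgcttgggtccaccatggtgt
Cox7a1: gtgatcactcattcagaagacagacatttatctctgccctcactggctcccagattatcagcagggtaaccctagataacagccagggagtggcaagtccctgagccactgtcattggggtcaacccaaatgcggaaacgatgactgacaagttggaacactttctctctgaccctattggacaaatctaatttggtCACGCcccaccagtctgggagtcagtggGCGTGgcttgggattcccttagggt
Cox6b2: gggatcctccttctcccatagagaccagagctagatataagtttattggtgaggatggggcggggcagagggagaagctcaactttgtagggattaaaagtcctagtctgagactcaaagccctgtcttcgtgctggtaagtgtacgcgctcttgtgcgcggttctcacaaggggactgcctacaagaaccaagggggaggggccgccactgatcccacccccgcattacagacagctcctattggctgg
The core occurs 2 times before Ndufv3 and 2 times before Cox7a1, and these letters are not in the window of Cox6b2. Ndufa4l2 had no entry. Windows of the same length held it for 38.6% of 27025 genes, for 59.45% of 7573 names in register with a mean of at least 100, and for 34 of 62 members with an entry (54.8%).

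For comparison, 3 windows are shown for names of complexes I and III, Ndufb4 and Ndufa8 as the members with the lowest passage p and Uqcrh as the least variable. Capitals mark GCGC and TGCGC with any base between, on either strand, a near-palindromic core bound by NRF1, a factor known to bind near genes of the respiratory chain. Ndufb4 lies at chr16:37654369-37654618, Ndufa8 at chr2:36049339-36049588 and Uqcrh at chr4:116075071-116075320, each on the minus strand.
Ndufb4: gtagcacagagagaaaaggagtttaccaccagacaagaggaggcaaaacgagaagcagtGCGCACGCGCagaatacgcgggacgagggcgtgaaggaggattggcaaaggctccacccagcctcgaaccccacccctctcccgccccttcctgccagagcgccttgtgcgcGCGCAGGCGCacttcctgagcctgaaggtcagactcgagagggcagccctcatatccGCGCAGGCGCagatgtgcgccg
Ndufa8: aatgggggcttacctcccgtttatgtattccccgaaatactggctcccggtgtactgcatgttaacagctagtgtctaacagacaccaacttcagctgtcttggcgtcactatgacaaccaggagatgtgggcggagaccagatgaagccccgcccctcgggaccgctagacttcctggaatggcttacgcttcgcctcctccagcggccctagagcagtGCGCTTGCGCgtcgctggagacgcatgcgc
Uqcrh: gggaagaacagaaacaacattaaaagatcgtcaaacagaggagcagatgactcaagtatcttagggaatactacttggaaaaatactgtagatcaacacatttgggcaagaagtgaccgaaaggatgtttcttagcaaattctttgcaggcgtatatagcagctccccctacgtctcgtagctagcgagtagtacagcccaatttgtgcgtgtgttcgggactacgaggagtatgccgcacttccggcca
The motif occurs 3 times before Ndufb4 and 1 time before Ndufa8, and these letters are not in the window of Uqcrh. In Ndufb4, 1 match overlaps ACGTG or GCGTG, which occurs 2 times there and 1 time before Uqcrh. It was found for 11 of 62 members (17.7%), namely Ndufs6, Ndufa5, Ndufa8, Ndufb4, Sdha, Sdhd, Cox6a1, Atp5g2, Atp5h, Atp5k and Ndufaf4, against 3.86% of all windows and 9.38% of those of expressed names.

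Isoforms of a subunit were compared per kilobase, with the same median length. Cox4i1 made up 99.4% to 99.9% of the Cox4 pair, Cox6a1 at least 99.8% of the Cox6a pair and Cox8a 99.1% to 99.6% of Cox8. Testis and muscle isoforms took a larger part in other pairs. Cox6b2 made up 20.5% ± 3.85 of the Cox6b pair at passage 6 and 23.0% ± 1.43 at passage 16 (SD, n = 4), ranging from 17.2% to 26.0%, and from 19.8% to 29.5% with the shortest transcripts. Cox7a1 made up 11.4% ± 2.71 of the Cox7a pair at passage 6 and 13.6% ± 1.13 at passage 16. Among the 3 genes for the c ring of ATP synthase, whose mature protein is the same, Atp5g3 took 45.3% to 50.6%, Atp5g2 42.0% to 47.1% and Atp5g1 5.80% to 7.63%. The principal transcripts of Atp5g1 run from 596 to 4715 bases, and with the shortest of each gene its share was 19.1% to 24.1%, with Atp5g2 at 40.0% to 45.9% and Atp5g3 at 32.0% to 36.5%. With the longest, Atp5g1 had 3.74% to 4.97%. Atp5g1 was also the most variable ATP synthase name, with 3584, 4762, 4577 and 3923 at passage 6 and 4614, 3746, 4789 and 4263 at passage 16. Passage 16 was lower than passage 6 in clone 20 and higher in the other clones. Atp5l, the g subunit of Fo, followed with a range from 3623 in clone 6 at passage 6 to 4593 in clone 20 at passage 6.

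The names just inside the threshold were Ndufa4l2 with a mean of 169, Atp5s with 173 and Cox7a1 with 204. Just outside were Cox4i2 with 20.5, Cox8c with 20.2 and Cox6a2 with 2.03, followed by Cox8b and Ndufs5. Cox4i2, the lung isoform that is induced by low oxygen, had 28.1, 4.505, 8.21 and 27.2 at passage 6 and 22.8, 43.0, 6.77 and 23.6 at passage 16, with the same lowest 3 libraries as Ndufa4l2. Ndufs5, a standard accessory subunit, had 0 reads in 7 of 8 libraries and 1 read in clone 30 at passage 6. It shares 21.7% of its stretches of 50 bases with BC002163, a name listed between 211 and 268 in every library.

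Among the names left out for lying in alphabetical runs, Ndufa1 and Ndufa11 show what a misalignment does. The values listed for Ndufa1 were 838, 892, 1800 and 1006 at passage 6 and 1636, 941, 1949 and 976 at passage 16, and those for Ndufa11 were 1595, 2013, 928 and 1675 and then 892, 1786, 1020 and 1828. Ndufa1 carries the higher listed value of the pair only in clone 30 at both passages and in clone 6 at passage 16. If rows were sorted by name and count together, the 1800, 1949 and 1636 listed there for Ndufa1 belong to Ndufa13. Such an order leaves 2 possible values there for Ndufa1 and for Ndufa11. In the other libraries it fixes Ndufa11 at its listed value, while Ndufa1 keeps 2 possible values. Also left out were Ndufa10, Ndufa12, Ndufa13, Atp5j, Atp5j2, Cox7b, Cox7b2, Ndufb10 and Ndufb11. Sorting by name and count would leave Ndufa10 at its listed value in every library. The rows of Ndufb10 and Ndufb11 are in register, since Ndufb1 is not a name of the table, and their log2 changes were 0.12 and 0.026. No kept member is X-linked, as Ndufa1, Ndufb11 and Cox7b fell among these names.

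Other lists of mitochondrial genes were counted in the same fit. No name passed the passage test in any of them, nor the clone test (limma). Of 46 assembly factors tested, Ndufaf3 among them, Sdhaf2 had an unadjusted p under 0.05 with a log2 change of -0.14, and the largest change was -0.33 for Sco2, which helps to load copper into complex IV. Of 18 regulators of mitochondrial gene expression none reached that level, with a median of -0.0046, and Myc and Ppara differed most, by -0.30 and 0.20. Of 20 names of the tricarboxylic acid cycle and pyruvate entry, Sucla2, a subunit of succinyl-CoA ligase, was at 0.16 and Pdha1, of pyruvate dehydrogenase, at -0.13. Of 10 electron carriers and inner membrane carriers Etfa, which brings electrons from fatty acid oxidation, was at 0.19 and Ucp2 at 0.12. Of 27 mitochondrial ribosomal proteins in register, Mrps18b was at -0.17 and Mrpl51 at 0.087, and 49 more lay in alphabetical runs.

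Of the marker names in register, those that differed most were Nr0b1 (-0.34) and Lin28a (-0.32) for ES cells, Dcn (0.57) and Col6a1 (0.48) for fibroblasts, Sox7 (-0.45) and Col4a1 (-0.40) for primitive endoderm, Tfap2c (0.29) and Eomes (0.29) for trophoblast, and Pax3 (0.50) and Nes (-0.40) for mesoderm and ectoderm. Of the 16 ES cell markers tested, 9 were fitted higher at passage 16, with a median log2 change of 0.024. At an unadjusted p under 0.05 (limma), 3 of them were higher, Nanog (0.27), Klf4 (0.28) and Tbx3 (0.24), and 1 was lower, Utf1 (-0.18). No marker passed the test after adjustment.

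The spread of the mitochondrial lists over the 8 libraries lay near that of the respiratory names or above it, with a median standard deviation of 0.12 for assembly factors, 0.095 for regulators, 0.10 for the tricarboxylic acid cycle, 0.11 for carriers and 0.11 for mitochondrial ribosomal proteins, against 0.41 for the glycolytic list. The lists were not matched for level. Over names in register the median was 0.14 at means of at least 100 and 0.11 at means of at least 1000. In the glycolytic list 0 of 21 names reached an unadjusted passage p under 0.05, and Slc16a3, a lactate transporter, and Aldoc differed most, by 0.52 and 0.41. The 6 tested names of the list of tissue-specific isoforms, which holds Cox6b2, Cox7a1 and Ndufa4l2, were all fitted higher at passage 16, and Cyct, the testis cytochrome c, had an unadjusted p under 0.05 with 222, 172, 194 and 181 at passage 6 and 294, 242, 221 and 243 at passage 16. Each clone was higher at passage 16.

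The names most like the mean of the 75 members over the 8 libraries, among 9369 names in register with a mean of at least 100, were Snrpf (Pearson r = 0.942), Rb1 (0.925), Vps41 (0.921), Snx4 (0.913) and Gspt2 (0.906). That mean is weighted by Ndufa4l2, and without it the 5 were Nell2 (0.935), 1810063B05Rik (0.919), Polr2c (0.892), Dync1i2 (0.887) and Faah (0.883), so that no name was in both lists. The points share the 8 libraries and their scaling, and these values are descriptions.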

How the data were processed

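PolyA+ RNA was made into strand-specific libraries and read as single-end reads. Per the labels and methods, the authors aligned to GRCm38/mm10 with TopHat2, Bowtie and SAMtools (0.1.19), counted with HTSeq (0.5.3p9) on a UCSC annotation and ran DESeq2. They deposited a signal per gene, the count divided by 1 size factor per library. Multiplied back, 100% were whole within 0.001. In the table, 5080 names (21.8%) lie in 644 alphabetical runs, marked by spelling alone, in which a name extends another by a digit. Rows there can be out of register, which was not tested for each name. Names called in register are those outside the runs.

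limma (3.58.1, R 4.3.3, eBayes with a trend) was fitted to log2(normalized count + 1) for 14791 names with a mean of at least 10, two-sided, with Benjamini-Hochberg adjustment at 0.05. Passage was fitted without a clone term, and clone with a passage term. The added 1 understates fold changes of low names, yet the limma change of Ndufa4l2, the lowest member, was larger than that of edgeR or DESeq2. edgeR (4.0.16), DESeq2 (1.42.0), other pseudocounts, filters and scalings and left-out libraries were alternatives. Positions come from RefSeq (GRCm38.p6, 72 members matched by symbol), transcript lengths (median over APPRIS principal transcripts) and shared stretches from GENCODE.

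Clone numbers in the labels pair libraries of the same line. Deviations from the passage means correlated across 12283 names in register with r = 0.096 for clone 6 (0.28 with another clone) and with 0.27, 0.70 and 0.43 for clones 20, 30 and 36. One member of complex I enters all counts and means, and its own values are not reported here. The members and gene lists were chosen with earlier results of these data known. Named genes are those with the largest changes, ranges and levels of each complex, isoforms, names at the threshold or left out, the 2 largest changes of each other list and the 5 names most like the members' mean. Ndufa8, Ndufb7, Cox7a2, Atp5k, Uqcrh, Ndufab1, Ndufaf3, the chromosome 6 members and those named for a clone were chosen after their values were seen.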

Additional observations from a re-analysis of the deposited data

Results flagged for a closer look

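In groups of 4 libraries, a gap between the highest or lowest library and its neighbour past Dixon's 95% critical value was looked for in 162 groups, the 2 passages of each member and of the means of 6 classes. It was found in 9, where chance gives about 1 in 20, or 8.1. The values are log2(normalized count + 1). At passage 6, Cox7c (11.74, the others 11.79 to 11.80) and Ndufb2 (9.68, the others 9.86 to 9.88) were low in clone 6, and Ndufs6 was high in clone 20 (10.87, the others 10.74). At passage 16, Cox6c (11.96, the others 11.79 to 11.80) and Ndufb9 (11.35, the others 11.18 to 11.21) were high in clone 30, and Ndufb7 (10.72, the others 10.47 to 10.50) and Sdha (12.96, the others 12.81) in clone 36. Ndufaf3 (7.94, the others 8.27 to 8.34) and Uqcrb (11.32, the others 11.41 to 11.42) were low in clone 6 at passage 16.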

How the results depend on the processing

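The passage test called 0 of 75 members under each of 27 alternatives, and the clone test 0 under each of 24. With the replicate block, that is the clone as a term, limma, edgeR and DESeq2 each called 0 members by passage, with lowest adjusted p of 0.726, 0.763 and 0.426, and the pairing changed no call. Over all names, limma, edgeR and DESeq2 called 1, 1 and 46 by passage and 20, 15 and 1121 by clone, and the cause was not tested. The median change over members was 0.0281 and lay between 0.0011 and 0.0542 over the alternatives. Leaving out libraries or clones gave both ends of that range, without clone 30 and without clone 20. Quantile normalization raised the share of members higher at passage 16 from 74.7% to 81.3%, and TMM scaling gave 76.0%. None of 48 means of a complex under other pseudocounts, TMM scaling or other choices of names moved by more than the spread between libraries. Of 351 values of 13 named members, 348 kept their direction and 0 passed the threshold. The 3 reversed came from leaving out libraries. Over those fits alone, Sdha ranged from -0.0071 (without clone 36 at passage 16) to 0.0549, Uqcrc1 from -0.0254 (without clone 30 at passage 16) to 0.104, and Ndufa4l2 from -0.3408 (without clone 20) to 2.127 (without clone 6). Quantile normalization gave 0.0672 for Sdha. The block fit restricted to names in register, the likeness without Ndufa4l2 and the shortest and longest transcripts were added after seeing the data. Depth limits Ndufa4l2 most, at 9 reads in 1 library, and shared sequence limits Atp5l, Atp5o and Uqcrb most.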
